A study of Mus musculus with 15 samples.

Results

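A set of 9 genes of proximal T cell receptor (TCR) signalling were followed in invariant natural killer T (iNKT) cells of 4 mouse tissues. They are Cd3d, Cd3e, Cd3g and Cd247, which encode the signalling chains of the CD3 complex, the kinase genes Lck and Zap70, the adaptor genes Lat and Lcp2, and Plcg1, which encodes a phospholipase. The 9 genes were taken by name from a list of the pathway, with earlier results of these data known, and are 9 of 48795 genes listed in each sample. All 9 passed the filter on low counts, which left 13600 genes.
iNKT cells of WT C57BL/6 mice aged 6 weeks had been sorted from thymus, spleen, mesenteric lymph nodes (mLN) and inguinal lymph nodes (iLN) as cells that bind the CD1d tetramer and carry TCRβ but lack B220, CD11b, CD11c and CD8. The 15 RNAseq samples comprised 4 replicates for every tissue but iLN, where replicate 1 was not analysed here and 3 remained. Replicates 3 and 4 carry the batch label First (batch 1, 8 samples), and replicates 1 and 2 carry the label Second (batch 2, 7 samples). LNs had been digested with collagenase before the sort, whereas thymus and spleen had been pressed through a strainer, so that digestion and LN origin cannot be told apart. Nothing in the labels tells if each replicate stands for a single animal or for pooled ones, and the p-values measure the spread between these samples. In such bulk samples, fewer cells that express a gene and less RNA per cell cannot be told apart.
The TCR has no enzymatic activity of its own. When it binds antigen, which for iNKT cells is a lipid on CD1d, the kinase Lck phosphorylates the tails of the CD3 chains, and the kinase Zap70 docks on these tails and phosphorylates the adaptors LAT and SLP-76 (the product of Lcp2). Phospholipase Cγ1 joins the complex of adaptors and makes the second messengers that open the calcium and the Ras and NF-κB arms of the response. The comparison of tissues asks whether the machinery downstream of the TCR is transcribed at different levels in iNKT cells from different places.
The sorted cells carried most transcripts of a list of 6 iNKT cell markers. Zbtb16, which encodes the transcription factor PLZF, was between 78.9 and 269 CPM (the counts of a gene relative to all counts of its library, after TMM scaling), and Trav11, the Vα segment of the invariant TCR, was between 145 and 335 CPM. Il2rb was between 679 and 1937 CPM, Icos between 225 and 1012 CPM, and Gata3 between 59.4 and 154 CPM. Trav11d had no counts in spleen and mLN, and at most 68.2 CPM in thymus and 2.17 CPM in iLN. Total counts were between 1152702 (thymus replicate 2) and 8670570, with a median of 5327351, and rRNA genes took 22.8% to 49.9% of counts in batch 1 and 18.0% to 30.2% in batch 2. Spleen replicate 1 stood apart in its other cell types. Its summed levels were 373 CPM for the 7 B cell markers and 57.0 CPM for the 7 myeloid markers, against 200.3 to 239 CPM and 9.76 to 13.5 CPM in the other 3 spleen samples. The B cell sum was mostly Ighm in thymus (76.4 to 141 CPM), where Pax5 was at 0 in all 4 samples.

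The genes of the CD3γ, δ and ε chains lie side by side on chromosome 9, and the starts of Cd3g and Cd3d point away from each other, 1355 bases apart, with the start of Cd3e 27825 bases beyond that of Cd3d. Lck has 2 annotated starts in this table, an upstream and a downstream one, whose transcripts are summed in the gene count. The RefSeq promoters (GRCm38.p6) of these genes and of Lat, the member with the lowest adjusted p between tissues, are shown from 250 bases before to 50 bases after the start. Capitals mark matches on either strand to any of 5 short motifs, and no 2 matches overlap. The motifs are TATAAA of the classical core promoter, GGGCGG as bound by Sp1, CACCTG as one form of the E box, TGTGGT as bound by Runx factors, and CAGGAAG as one form of the motif of Ets factors.
Cd3g, minus strand, chr9:44980382-44980681: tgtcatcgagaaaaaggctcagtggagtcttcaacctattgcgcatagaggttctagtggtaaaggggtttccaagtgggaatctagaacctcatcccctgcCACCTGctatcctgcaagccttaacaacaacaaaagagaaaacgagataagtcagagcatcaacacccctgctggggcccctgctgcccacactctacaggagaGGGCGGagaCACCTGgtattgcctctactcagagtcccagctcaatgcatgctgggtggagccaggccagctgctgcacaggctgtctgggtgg
Cd3d, plus strand, chr9:44981536-44981835: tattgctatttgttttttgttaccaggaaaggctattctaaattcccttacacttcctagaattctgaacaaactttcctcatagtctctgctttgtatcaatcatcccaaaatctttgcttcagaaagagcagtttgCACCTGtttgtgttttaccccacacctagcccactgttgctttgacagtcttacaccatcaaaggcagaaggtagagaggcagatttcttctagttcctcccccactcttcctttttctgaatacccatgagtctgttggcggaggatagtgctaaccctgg
Cd3e, minus strand, chr9:45009562-45009861: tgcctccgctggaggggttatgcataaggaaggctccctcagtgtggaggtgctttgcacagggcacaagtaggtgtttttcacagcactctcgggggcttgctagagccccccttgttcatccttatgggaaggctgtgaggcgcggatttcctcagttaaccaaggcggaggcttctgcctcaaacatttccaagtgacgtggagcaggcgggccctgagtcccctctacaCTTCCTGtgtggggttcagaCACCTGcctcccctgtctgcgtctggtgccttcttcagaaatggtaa
Lck, minus strand, upstream start, chr4:129573592-129573891: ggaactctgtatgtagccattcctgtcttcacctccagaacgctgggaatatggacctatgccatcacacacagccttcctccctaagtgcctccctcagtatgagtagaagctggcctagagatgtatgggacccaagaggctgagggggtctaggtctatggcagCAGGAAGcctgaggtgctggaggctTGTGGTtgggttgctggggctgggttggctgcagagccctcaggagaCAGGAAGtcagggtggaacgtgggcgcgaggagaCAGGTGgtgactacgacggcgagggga
Lck, minus strand, downstream start, chr4:129558323-129558622: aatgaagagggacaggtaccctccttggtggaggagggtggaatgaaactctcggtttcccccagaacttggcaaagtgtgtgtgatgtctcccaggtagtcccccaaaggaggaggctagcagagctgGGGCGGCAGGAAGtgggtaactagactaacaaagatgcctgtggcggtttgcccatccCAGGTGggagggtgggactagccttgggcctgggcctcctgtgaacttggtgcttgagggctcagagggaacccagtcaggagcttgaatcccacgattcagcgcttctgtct
Lat, minus strand, chr7:126369519-126369818: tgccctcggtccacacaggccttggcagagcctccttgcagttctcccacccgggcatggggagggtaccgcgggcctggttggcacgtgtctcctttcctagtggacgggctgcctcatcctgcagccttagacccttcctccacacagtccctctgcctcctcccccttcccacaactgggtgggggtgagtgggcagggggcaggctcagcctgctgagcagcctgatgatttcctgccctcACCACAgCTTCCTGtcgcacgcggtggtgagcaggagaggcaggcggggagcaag
All 9 genes had an entry, with 12 promoters in all, since Zap70 has 3 and Lck 2. CACCTG was in 9 of the 12 and in 20.2% of all 32851 promoters in the table, and CAGGAAG was in 7 of the 12 and in 13.3% of all. TGTGGT was in 3 of the 12 (16.8% of all), GGGCGG in 3 (35.7% of all) and TATAAA in none (13.6% of all). In Cd3g, CACCTG starts 148 and 35 bases before the start, in Cd3d 112 bases before it, and in Cd3e at base 4 of the transcript. Lck carries CAGGAAG at both starts, 115 bases before the downstream one and 83 and 11 bases before the upstream one. A match is a description of these letters and not a bound site.

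Per length, Cd3e was the most abundant of the 9 in each tissue. Its mean over the 15 samples was 1304 ± 271 TPM, a unit that also divides by transcript length, followed by Cd3g with 365 ± 57.9 TPM, Lat with 184 ± 56.6 TPM and Cd3d with 169 ± 34.7 TPM (SD, n = 15). Lcp2 (152 ± 32.4 TPM), Lck (151 ± 39.5 TPM) and Cd247 (110 ± 42.6 TPM) came next, and Plcg1 (54.9 ± 14.5 TPM) and Zap70 (48.8 ± 15.6 TPM) were lowest. Cd3e (816 to 1849 TPM) and Cd3g (246 to 461 TPM) did not overlap with each other. Lat, Cd3d, Lcp2 and Lck, neighbours in the order, differed by less than their SDs, as did Plcg1 and Zap70. All 9 were read with at least 81 counts in every sample, the lowest being Zap70 in thymus replicate 2. The summed level of the 9 genes was 2527 ± 458 TPM in thymus, 2320 ± 376 TPM in spleen and 2714 ± 121 TPM in mLN (each of 4 samples). For the 3 samples of iLN it was 2612 ± 617 TPM, and these ranges overlapped. The TPM total includes rRNA genes, so these levels also depend on the rRNA share of each sample.

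**Figure D1:**
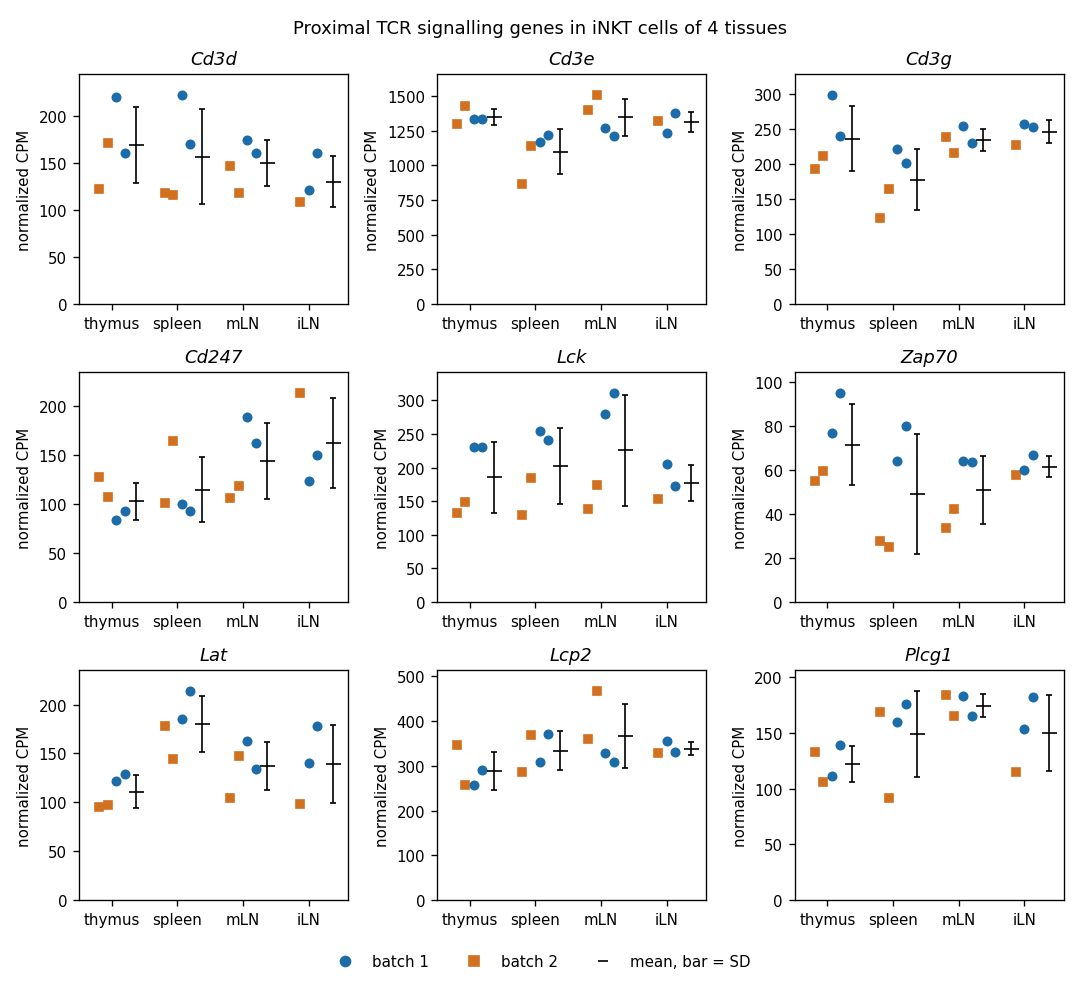
Normalized CPM of the 9 genes (y axis, from 0) in each sample of the 4 tissues (x axis), with circles for batch 1, squares for batch 2, and the mean with SD beside them. Lat in thymus (95.2 to 129 CPM) lies below Lat in spleen (144 to 214 CPM). Zap70 lies between 60.1 and 95.1 CPM in batch 1 and between 24.9 and 59.5 CPM in batch 2.

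None of the 9 genes passed the edgeR test between tissues. With edgeR's quasi-likelihood test over the 4 tissues, 0 of 9 were called at a Benjamini-Hochberg adjusted p under 0.01, beside 3.38% of the 13600 genes. Among the 3099 genes whose mean reached 50 CPM, as that of all 9 did, 237 were called. An unadjusted p under 0.05 was found for 3 of 9 (Cd3g, Cd247 and Lat), beside 19.4% of all genes. In the 6 pairs of tissues, called at an adjusted p under 0.01 and a fold change over 1.5, it was again 0 of 9 (3.65% of all genes were called in at least 1 pair). By pair, 0 of 9 stood beside 1.32% of all genes for thymus against spleen, 0.654% for mLN and 1.55% for iLN against spleen, 1.6% for mLN and 1.5% for iLN against thymus, and 0.471% for iLN against mLN. At an unadjusted p under 0.05, edgeR gave 4 of 9 for thymus against spleen (10.6% of all genes), 3 for mLN (12.2%) and 3 for iLN (16.4%) against spleen, 4 for mLN (13.5%) and 2 for iLN (16.5%) against thymus, and 1 for iLN against mLN (13.8%). DESeq2, the tool that the study used, called 1 of 9, Lat, over the 4 tissues, beside 7.37% of all genes. It also called Lat between thymus and spleen, beside 2.85%.
The intervals bound what could have been missed. Of the 54 log2 fold changes (9 genes in 6 pairs), 50 had a 95% interval within 2-fold in either direction, and 22 within 1.5-fold. The 4 that reached past 2-fold were Lat and Zap70 between thymus and spleen and Cd247 in iLN against spleen and against thymus. The range between the highest and lowest fitted tissue mean had a median of 0.45 on the log2 scale over the 9 genes (0.30 for Cd3e to 0.70 for Lat). It was 0.81 over all genes tested and 0.48 over the 3099 genes whose mean reached 50 CPM.

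**Figure D2:**
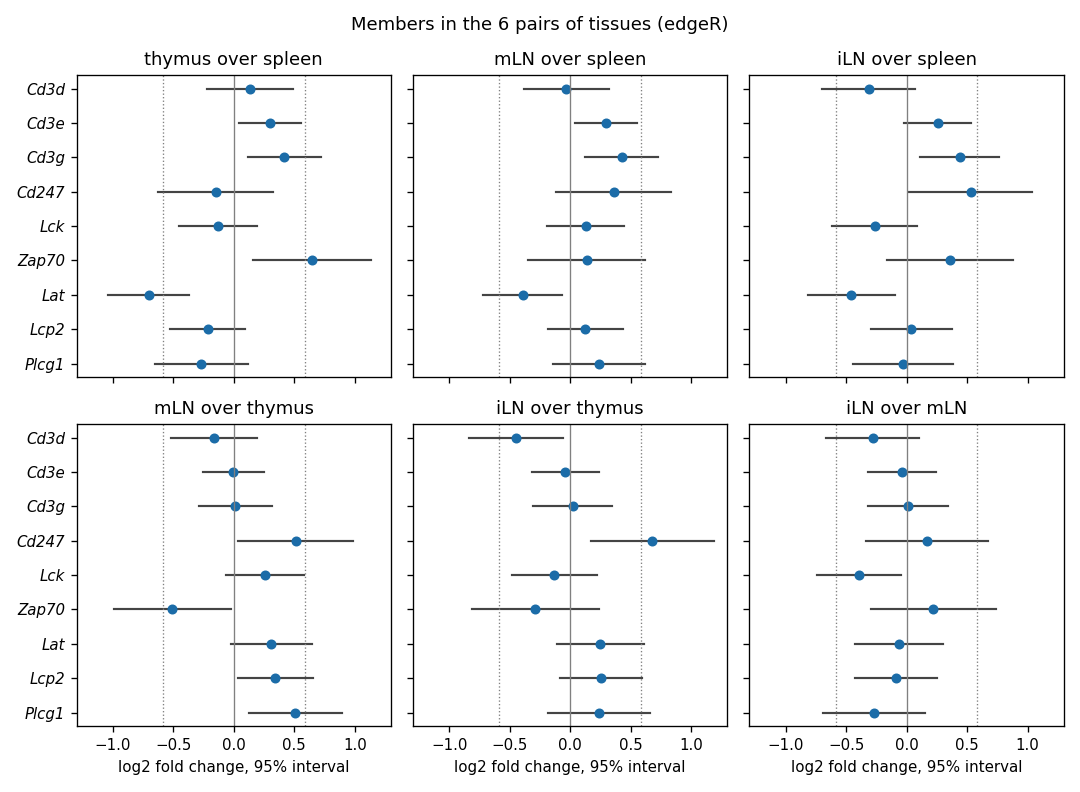
Log2 fold change (x axis) of each of the 9 genes (y axis) in the 6 pairs of tissues, as points with 95% intervals from edgeR, where dotted lines mark a fold change of 1.5. Lat between thymus and spleen lies at -0.70 and Cd247 between iLN and thymus at 0.68, and Cd3e lies within 0.30 of 0 in each panel.

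Of the 3 CD3 genes on chromosome 9, Cd3e and Cd3g had their lowest means in spleen and Cd3d had its lowest in iLN, and none of these differences passed the test. Cd3e, which pairs with both other chains in the complex, was 1300, 1430, 1331 and 1337 CPM in thymus, 862, 1142, 1167 and 1220 CPM in spleen, 1397, 1509, 1268 and 1212 CPM in mLN (replicates 1 to 4), and 1321, 1233 and 1378 CPM in iLN (replicates 2 to 4). Each thymus and iLN sample was above each spleen sample, whereas mLN and spleen overlapped. Among the 9 genes, the samples did not overlap for 2 between thymus and spleen (8.56% of all genes), 2 between iLN and spleen (12.9%), 1 between mLN and thymus (8.05%), and 0 between mLN and spleen (6.2%), iLN and thymus (13.4%) and iLN and mLN (8.48%). The log2 fold change of Cd3e was 0.30 (SE 0.12, 95% interval 0.04 to 0.55, adjusted p = 0.332) for thymus against spleen and 0.29 (SE 0.12, adjusted p = 0.308) for mLN against spleen.
Cd3g, the chain that forms a dimer with Cd3e on one side of the receptor, was 192, 212, 299 and 240.4 CPM in thymus, 123, 164, 222 and 202 CPM in spleen, 238, 216, 254 and 230 CPM in mLN, and 227, 258 and 253 CPM in iLN. The 3 iLN samples were above each spleen sample, while thymus and mLN overlapped with spleen. Cd3g was higher than in spleen by 0.42 (thymus, adjusted p = 0.196), 0.43 (mLN, adjusted p = 0.186) and 0.44 (iLN, adjusted p = 0.137) on the log2 scale, with SEs of 0.14 to 0.15, and none of these passed the test. Spleen replicate 1, the sample with most B cell and myeloid transcripts, was the lowest of the 15 for both genes. Without it the log2 fold change was 0.19 (adjusted p = 0.754) for Cd3e between thymus and spleen and 0.30 (adjusted p = 0.528) for Cd3g between mLN and spleen. The part of other cells in these values was not tested.
Cd3d, which pairs with Cd3e on the other side, was 123, 172, 221 and 161 CPM in thymus, 119, 116, 223 and 171 CPM in spleen, 147, 118, 175 and 160 CPM in mLN, and 109, 122 and 161 CPM in iLN. All 4 ranges overlapped. Its largest log2 fold change was -0.45 (SE 0.19, 95% interval -0.83 to -0.06, adjusted p = 0.224), for iLN against thymus.
Cd247 encodes CD3ζ, the chain with most of the phosphorylation sites, and lies apart from the others on chromosome 1. It was 127, 107, 84.0 and 93.0 CPM in thymus, 101, 164, 100.4 and 92.5 CPM in spleen, 106, 118, 189 and 162 CPM in mLN, and 213, 124 and 149 CPM in iLN. The means followed the order thymus (103 ± 18.8), spleen (114 ± 33.3), mLN (144 ± 38.5) and iLN (162 CPM, n = 3), and the samples of every pair of tissues overlapped. The log2 fold change of iLN over thymus was 0.68 (SE 0.24, 95% interval 0.17 to 1.19, adjusted p = 0.152), and 0.44 (adjusted p = 0.481) without iLN replicate 2, the sample with the highest value. For LNs against spleen and thymus together, Cd247 gave 0.52 (SE 0.17, 95% interval 0.17 to 0.87, adjusted p = 0.0918). In that comparison 0 of 9 genes were called, beside 1.72% of all genes, and 2 of 9 (Cd3g and Cd247) had an unadjusted p under 0.05, beside 17.6%. Within batches, the value of Cd247 in that comparison was 0.73 (adjusted p = 0.0219) in batch 1 and 0.30 (adjusted p = 0.711) in batch 2, and its mLN against spleen was 0.84 in batch 1 and -0.245 in batch 2. DESeq2 called 0 of 9 there too, beside 3.51% of all genes.
Within a library, the balance between the 4 chains does not depend on how libraries are scaled. Cd3e held 66.7% ± 2.72 of their summed TPM, Cd3g 18.9% ± 1.84, Cd3d 8.84% ± 1.94 and Cd247 5.60% ± 1.74 (SD, n = 15). The share of Cd3e was between 65.9% (spleen) and 67.2% (mLN) in the tissue means. That of Cd247 was 4.15% ± 0.857 in thymus, 5.64% ± 1.58 in spleen, 6.01% ± 1.92 in mLN and 6.95% ± 1.90 in iLN. That of Cd3d was 10.3% ± 2.36 in spleen, 9.15% ± 1.698 in thymus, 8.29% ± 1.57 in mLN and 7.27% ± 1.22 in iLN. The ratio of Cd3g to Cd3d, the neighbours that start in opposite directions, was 1.83 ± 0.368 in spleen, 2.18 ± 0.277 in thymus, 2.28 ± 0.357 in mLN and 2.66 ± 0.426 in iLN. These shares and ratios were described without a test, and their samples overlapped between tissues except that each Cd247 share in iLN (5.49% to 9.10%) was above each in thymus (3.21% to 5.29%).

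**Figure D3:**
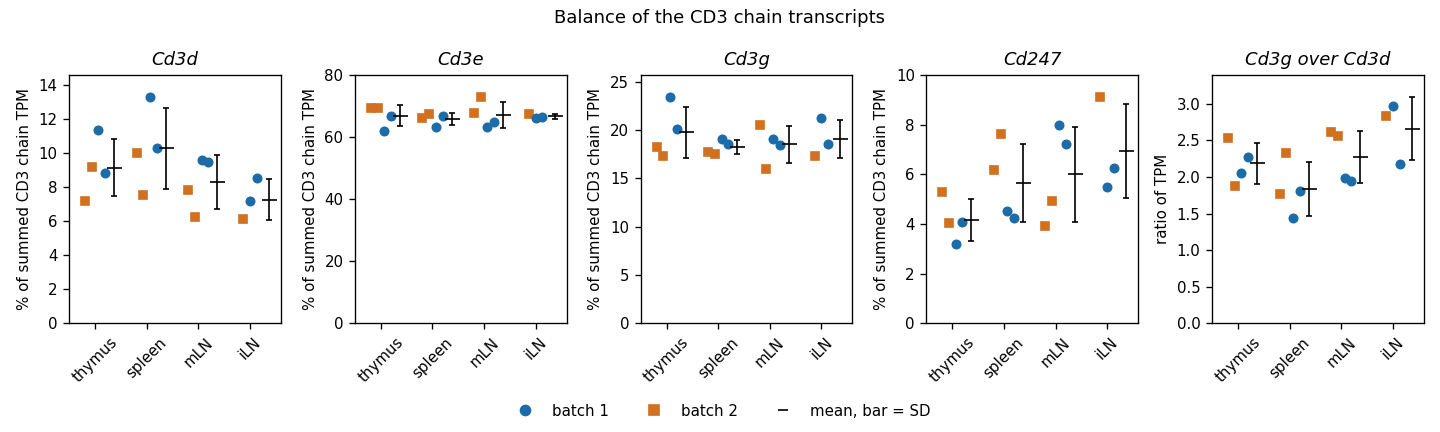
Share of each CD3 chain in the summed TPM of the 4 chains (y axis, percent, from 0) and, in the last panel, the ratio of Cd3g to Cd3d TPM, for each sample by tissue, with the mean and SD beside the points. Cd3e holds between 62.1% and 72.8% in every sample, and Cd247 is lowest on average in thymus (4.15%).

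Both kinases passed the test between batches and not between tissues. Lck, which starts the cascade, was 132, 148, 231 and 231 CPM in thymus, 130.1, 184, 255 and 240.4 CPM in spleen, 138, 174, 280 and 311 CPM in mLN, and 153, 206 and 172 CPM in iLN. All tissues overlapped, and in each of thymus, spleen and mLN both batch 1 samples (replicates 3 and 4) were above both batch 2 samples. The largest log2 fold change between tissues was -0.39 (SE 0.17, 95% interval -0.74 to -0.04, adjusted p = 0.293), for iLN against mLN. It was -0.65 (adjusted p = 0.112) in batch 1 alone and -0.04 (adjusted p = 1) in batch 2 alone.
Zap70, which docks on the phosphorylated CD3 chains, was 55.0, 59.5, 76.6 and 95.1 CPM in thymus, 27.5, 24.9, 64.3 and 80.1 CPM in spleen, 33.5, 42.2, 64.3 and 63.8 CPM in mLN, and 57.6, 60.1 and 66.9 CPM in iLN. It was lowest in the 2 spleen samples of batch 2. The log2 fold change of thymus over spleen was 0.65 (SE 0.23, 95% interval 0.16 to 1.13, adjusted p = 0.225), with 0.24 (adjusted p = 1) in batch 1 alone and 1.11 (adjusted p = 0.474) in batch 2 alone.
A test of the batch term in the same edgeR fit was added after these values had been seen. Between batches 2 of 9 genes were called, Lck and Zap70, beside 3.82% of all genes. Lck was 241 ± 42.8 CPM in batch 1 (n = 8) and 151 ± 20.7 CPM in batch 2 (n = 7), a difference of 0.68 on the log2 scale (SE 0.11, edgeR adjusted p = 0.000954). Zap70 was 71.4 ± 11.8 CPM in batch 1 and 42.9 ± 14.7 CPM in batch 2 (0.78, SE 0.17, edgeR adjusted p = 0.00663). Its lowest batch 1 value (60.1 CPM, iLN replicate 3) lay just above its highest in batch 2 (59.5 CPM, thymus replicate 2, from 81 counts). The share of all genes whose samples separate between batches was not computed. Cd3d (0.47, edgeR adjusted p = 0.0213) and Lat (0.38, edgeR adjusted p = 0.0472) were also higher in batch 1 on average without passing the test, and Cd3e gave -0.01 (95% interval -0.19 to 0.18). The median absolute difference between batches was 0.32 over the 9 genes and 0.40 over all genes. By the labels the batches also differ in sequencing lane and in the prefix of the sample names, and these cannot be told apart from batch.
RSEM's length of a gene, the mean over its transcripts weighted by their estimated share, can show a change in the mix of transcripts. For Lck it was 1649 ± 148 bases in spleen, 1825 ± 82.6 in thymus, 1939 ± 118 in mLN and 2002 ± 62.2 in iLN (SD over 4 samples, 3 for iLN). The spleen samples (1492 to 1805 bases) were below each iLN sample (1940 to 2065 bases) and overlapped with mLN (1776 to 2034 bases). In a test of log2 length with limma over the 4 tissues, added after the lengths had been seen, the adjusted p was 0.547 for Lck and 0.693 for Cd3g. None of the 7 genes with more than 1 length was called, beside 0.0222% of 9000 genes. Cd3d and Cd3e kept a single length of 1323 and 1436 bases in all 15 samples.

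Lat had the lowest adjusted p of the 9 genes between tissues. LAT is the membrane adaptor on which Zap70 assembles the signalling complex. It was 95.2, 97.8, 122 and 129 CPM in thymus, 178, 144, 185 and 214 CPM in spleen, 104, 147, 162 and 134 CPM in mLN, and 98.3, 141 and 178 CPM in iLN. Each thymus sample was below each spleen sample, and both LNs overlapped with either. The means were 111 ± 17.2 CPM in thymus and 180.3 ± 28.7 CPM in spleen (n = 4 each). The log2 fold change was -0.70 (SE 0.16, 95% interval -1.04 to -0.37, edgeR adjusted p = 0.0173), which did not reach the threshold of 0.01.
The call depended on the test. DESeq2 gave -0.69 (adjusted p = 0.0022) and an edgeR fit of only thymus and spleen gave -0.71 (adjusted p = 0.00378), both past the threshold. Batch 1 alone gave -0.68 (adjusted p = 0.225) and batch 2 alone -0.75 (adjusted p = 0.492), and without spleen replicate 1 the value was -0.63 (adjusted p = 0.0752). Against spleen, Lat was lower by log2 values of -0.39 in mLN (SE 0.16, adjusted p = 0.284) and -0.46 in iLN (SE 0.17, adjusted p = 0.172), neither past the threshold. In TPM Lat was again lowest in thymus (140.2 ± 8.42) and highest in spleen (236 ± 61.7), with 182 ± 30.5 in mLN and 177 ± 77.3 in iLN.
Lcp2 encodes SLP-76, the cytosolic adaptor that binds to the LAT complex. It was 347, 257, 257 and 290 CPM in thymus, 287, 369, 309 and 372 CPM in spleen, 361, 467, 329 and 308 CPM in mLN, and 329, 355 and 331 CPM in iLN. All 4 ranges overlapped. Its largest log2 fold change was 0.34 (SE 0.15, 95% interval 0.03 to 0.65, adjusted p = 0.304), for mLN over thymus.
Plcg1, the enzyme that cleaves the membrane lipid PIP2, was 133, 106, 112 and 139 CPM in thymus, 169, 91.8, 160 and 176 CPM in spleen, 184, 166, 183 and 166 CPM in mLN, and 115, 153 and 182 CPM in iLN. Each mLN sample was above each thymus sample. The log2 fold change was 0.51 (SE 0.18, 95% interval 0.13 to 0.89, adjusted p = 0.186). The lowest of the 15 values was in spleen replicate 2.

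The genes whose profile over the 15 samples was nearest to that of the members with the widest range were picked by the root mean square difference of centred log2 CPM, among the 10113 genes whose mean reached 5 CPM. For Lat they were Chd3 (0.19), Smad3 (0.22), Smarcc2 (0.23), Dnm2 (0.23) and Apbb1ip (0.23). For Cd247 they included Snx14 (0.24), Sun2 (0.25), Arhgap31 (0.25) and Sp1 (0.26). None of the other 8 members was among the nearest 5 of either gene.

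Several members have a close relative that does a similar step in other cells, and the share of the relative in the summed TPM of the pair was followed. Fcer1g encodes the FcRγ chain, a relative of CD3ζ that serves Fc receptors and can stand in for it. It was 58.1, 77.9, 46.6 and 48.8 CPM in thymus, 2.67, 6.46, 7.23 and 2.85 CPM in spleen, 2.85, 3.63, 4.37 and 4.43 CPM in mLN, and 3.59, 1.35 and 3.42 CPM in iLN. Each thymus sample was at least 46.6 CPM and no other sample was above 7.23 CPM. Fcer1g was higher in thymus than in spleen by 3.59 on the log2 scale (SE 0.43, 95% interval 2.70 to 4.48, edgeR adjusted p = 3.69e-05), and lower in mLN (-3.90, edgeR adjusted p = 1.95e-05) and iLN (-4.31, edgeR adjusted p = 5.29e-05) than in thymus.
As a share of the summed TPM of Fcer1g and Cd247, Fcer1g was 64.0% ± 4.92 in thymus, 11.5% ± 4.59 in spleen, 7.84% ± 0.901 in mLN and 4.82% ± 1.49 in iLN. The thymus samples (60.6% to 71.0%) did not overlap with any other (3.28% to 18.0%). Cd247 itself gave, for thymus against spleen, -0.15 on the log2 scale (95% interval -0.63 to 0.33), which did not pass the test.
Myeloid and NK cells also carry Fcer1g. The 7 myeloid markers summed to 1.47 to 3.79 CPM there, against 9.76 to 57.0 CPM in spleen, and the 4 NK cell markers to 2.94 to 3.75 CPM, against 0.498 to 1.36 CPM in spleen, 0.130 to 1.74 CPM in mLN and 0 to 3.59 CPM in iLN. The NK cell sum was thus higher in each thymus sample than in any of spleen or mLN, and the myeloid sum was lower. Within the NK cell list, Klra8 (median 2.38 CPM) and Klra4 (0.408 CPM) were highest in thymus, with medians of 0 elsewhere. Ncr1 had a median of 0.190 CPM in thymus and 0.743 CPM in spleen. For Eomes the medians were 0.190 CPM in thymus and 0.297 CPM in mLN. The 6 markers of immature thymocytes summed to 13.6 to 64.5 CPM in thymus and 2.88 to 13.5 CPM elsewhere, with Rag1 at 5.51 to 22.1 CPM in thymus and at most 0.150 CPM in any other sample. By median, Rag2, Dntt and Cd8a were also highest in thymus, though for Cd8a by little (4.95 CPM, and 4.89 CPM in mLN). Ptcra had its highest median in spleen (1.46 CPM, thymus 0.704 CPM) and Cd8b1 in iLN (4.77 CPM, thymus 3.08 CPM). The part of these cells in the thymic values was not tested.
Fcer1g was the one relative that passed the test over the 4 tissues. Fyn, the second Src kinase of T cells, took 37.01% ± 10.8 of the pair with Lck in thymus, 38.3% ± 2.55 in spleen, 35.4% ± 10.3 in mLN and 41.0% ± 5.33 in iLN. Fyn itself did not pass the test over the 4 tissues (edgeR adjusted p = 0.244). Syk, the relative of Zap70 that B cells and myeloid cells use, was at 0 to 7.19 TPM, with the highest value in spleen replicate 1, where it reached 19.3% of the pair. Its share was also 10.2% in iLN replicate 3 and 9.43% in mLN replicate 2. In CPM, the highest Syk values were 17.6 in spleen, 17.3 in mLN, 17.6 in iLN and 11.4 in thymus. Blnk, the B cell counterpart of Lcp2, did not pass the filter on low counts and was highest in spleen replicate 1, at 10.5 TPM. It was at most 0.100 TPM in the other spleen samples and at most 0.360 TPM in any sample of the other tissues. Plcg2 (at most 2.69 TPM) and Lat2 (at most 8.10 TPM, and 0 in all 3 iLN samples) were also highest in spleen replicate 1 and stayed below 6% of their pairs. Lat2 was 1.24 to 7.20 TPM in thymus, and at most 0.750 TPM in the other spleen samples and 0.510 TPM in mLN.

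**Figure D4:**
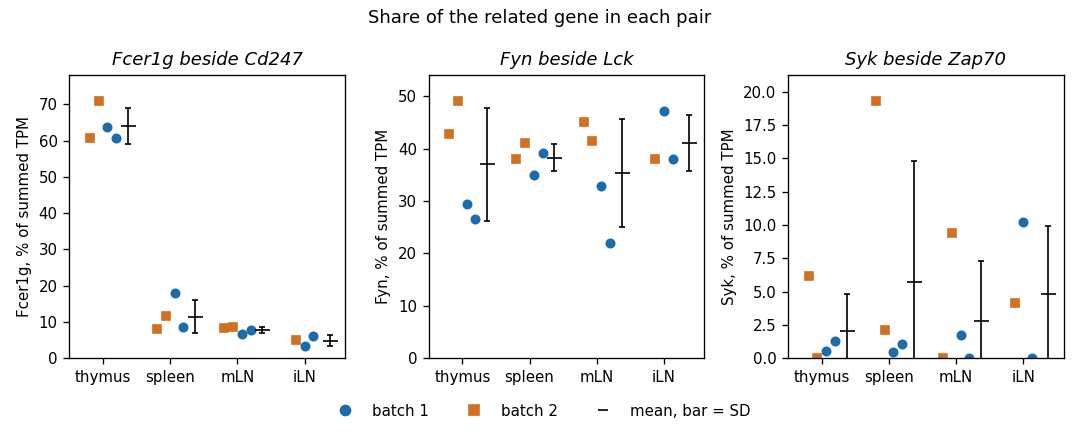
Share of the related gene in the summed TPM of each pair (y axis, percent, from 0) by tissue, for Fcer1g beside Cd247, Fyn beside Lck and Syk beside Zap70, with the mean and SD beside the points. Fcer1g holds 60.6% to 71.0% of its pair in the 4 thymus samples and at most 18.0% in all others.

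A list of 75 further genes of the pathway was read in the same fit, of which 74 passed the filter. Over the 4 tissues 7 of 74 were called by edgeR, beside 3.38% of all genes, and for LNs against spleen and thymus 3 of 74, beside 1.72%. Among the 3099 genes whose mean reached 50 CPM, 237 were called over the 4 tissues and 111 for LNs. The list had a median range between tissues of 0.55 on the log2 scale. By role, 1 of 5 relatives of the members tested passed (Fcer1g), 1 of 8 genes of coreceptor and Lck control (Pag1), 2 of 15 of the LAT and SLP-76 complex (Txk and Themis), 1 of 17 of the diacylglycerol, Ras and NF-κB arm (Rasgrp1), and 2 of 12 brakes (Ptpn6 and Ptpn22). None of the 3 TCR constant chains and none of the 14 genes of the calcium and NFAT arm passed by edgeR, although 2 and 2 had an unadjusted p under 0.05. DESeq2, counted over the whole list, called 14 of 74 over the 4 tissues, beside 7.37% of all genes.
Themis, a T cell protein that binds SLP-76 and Grb2 and is needed for the development of T cells, was 16.8, 28.7, 13.5 and 17.3 CPM in thymus, 104, 228, 140 and 146 CPM in spleen, 193, 246, 172 and 191 CPM in mLN, and 105, 139 and 85.7 CPM in iLN. Thymus was below every other sample. Themis was lower in thymus than in spleen (-3.08 on the log2 scale, SE 0.26, edgeR adjusted p = 5.57e-07), and higher in mLN than in thymus by 3.45 (edgeR adjusted p = 1.79e-07).
Ptpn6 encodes SHP-1, a phosphatase that dampens TCR signals. It was 129, 201, 244 and 272 CPM in thymus, 58.3, 51.1, 68.8 and 67.5 CPM in spleen, 53.0, 52.4, 111 and 102 CPM in mLN, and 84.0, 99.4 and 56.8 CPM in iLN. It was higher in thymus than in spleen by 1.75 (SE 0.22, edgeR adjusted p = 9.47e-05), and no other sample reached the lowest thymus value.
Rasgrp1, the activator of Ras that responds to diacylglycerol, was 214, 255, 155 and 197 CPM in thymus and 508, 529, 305 and 351 CPM in spleen. In LNs it was between 295 and 437 CPM, above every thymus sample. The log2 fold change of thymus against spleen was -1.03 (SE 0.14, edgeR adjusted p = 0.000203), and that of iLN against thymus 1.05 (SE 0.15, edgeR adjusted p = 0.000342).
The calls of 3 further genes came from iLN against spleen, and for Ptpn22 also from iLN against thymus, while Pag1 and Txk overlapped between iLN and thymus. Pag1, an adaptor that holds the inhibitor of Lck at the membrane, was 531, 398 and 392 CPM in iLN and 185 to 293 CPM in spleen (0.98, SE 0.18, edgeR adjusted p = 0.00334). Txk, a Tec kinase, was 247, 223 and 233 CPM in iLN and 326 to 662 CPM in spleen (-0.90, SE 0.18, edgeR adjusted p = 0.00641). Ptpn22, a phosphatase that acts on Lck and Zap70, was 171, 178 and 194 CPM in iLN and 264 to 408 CPM in spleen (-0.74, SE 0.15, edgeR adjusted p = 0.00945). Pag1 was also lower in batch 1 than in batch 2 (-0.60, edgeR adjusted p = 0.00405). The call for iLN against spleen was lost in 10 of 24 alternatives for Pag1, in 13 for Txk and in 19 for Ptpn22, and that over the 4 tissues in 6, 8 and 19 of 23.
For LNs against spleen and thymus, Themis was higher (1.504, SE 0.17, edgeR adjusted p = 4.94e-05) and Fcer1g lower (-2.31, SE 0.32, edgeR adjusted p = 0.000194), both with the values of thymus in the mean. Dok2, an adaptor that restrains the cascade, was 35.4 CPM as the mean of both LNs and 59.2 CPM as that of spleen and thymus (-0.81, SE 0.17, edgeR adjusted p = 0.00827), a call that 17 of 23 alternatives lost. Cd4, named after its values were seen, was called only for mLN against thymus (1.22, SE 0.26, edgeR adjusted p = 0.00893), with overlapping samples, and 15 of 24 alternatives lost this call.
Trac, the constant region of the TCRα chain, came nearest to a call in its group. It was 820.0, 798, 875 and 923 CPM in thymus, 392, 605, 651 and 624 CPM in spleen, 717, 779, 655 and 713 CPM in mLN, and 829, 765 and 1059 CPM in iLN, again lowest in spleen replicate 1. The edgeR adjusted p was 0.0378 over the 4 tissues. Nfatc3, a transcription factor that calcium activates, was the nearest of its arm (edgeR adjusted p = 0.0770), with means of 289 CPM in thymus, 342 CPM in spleen, 399 CPM in mLN and 381 CPM in iLN.

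**Figure D5:**
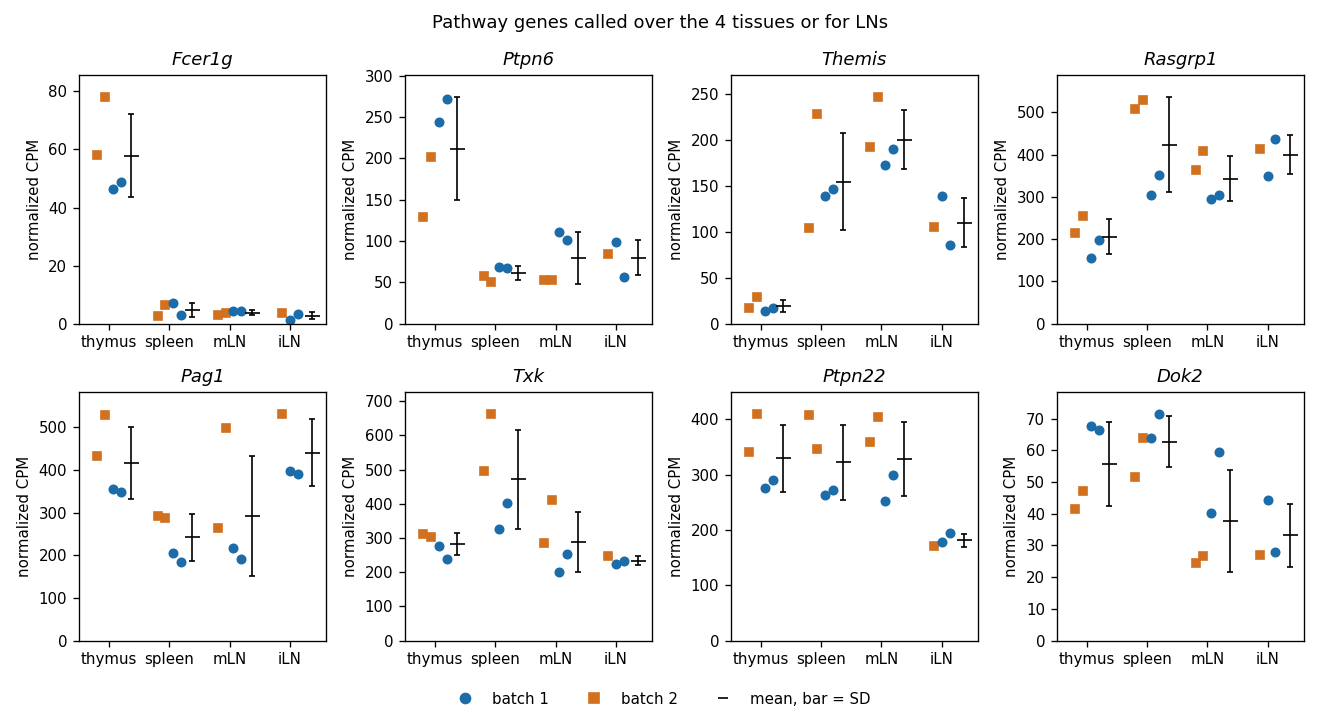
Normalized CPM (y axis, from 0) of the 8 pathway genes called over the 4 tissues or for LNs, in each sample by tissue, with circles for batch 1, squares for batch 2, and the mean with SD beside them. In thymus, Fcer1g and Ptpn6 lie above and Themis below all other samples.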

How the data were processed

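The authors trimmed the reads with cutadapt 1.7.1 and ran RSEM 1.2.31 with Bowtie2 2.2.9 on GRCm38, per the submitters' processing notes. The authors deposited the expected count of each gene, RSEM's estimate of its fragments, with no normalization and no filter, so that fragments of related genes are shared by estimate. The deposited TPM values are expected counts per effective length, scaled to 1 sum in every sample. They were used for levels between genes and for shares. The authors also deposited FPKM, which was not used, and the length columns were used only for the mix of transcripts. Gene names came from GENCODE vM21 (48349 of 48795 identifiers had one), and sequences from RefSeq.
Expected counts were rounded, filtered with filterByExpr of edgeR 4.0.16 (limma 3.58.1, R 4.3.3) and scaled by TMM (factors 0.755 to 1.18). The quasi-likelihood fit used tissue and batch over all 15 samples. It gave the CPM, the log2 fold changes with SE, and p-values adjusted by Benjamini-Hochberg over 13600 genes. The study's own model also had tissue and batch as its terms but was fitted with DESeq2, which is an alternative here. On simulated data for LNs against spleen and thymus (13246 genes), 73.6% of 106 genes with a log2 change of 2 and 35.3% of 85 with a log2 change of 1 were called, and 0 of 13055 unchanged genes. The changed genes were drawn at random from all genes tested, and no batch difference was simulated. These shares therefore do not give the power for the members or for pairs of tissues. Replicates of a tissue differed by more than counting error, with a chi-squared per degree of freedom of at least 7.33, and no 2 samples were counted as 1.
The 9 members, the list of 75 pathway genes, the markers (37 of 40 matched by symbol) and the tests were chosen with earlier results of these data known. Of the pathway list, genes were named when called over the 4 tissues or for LNs, and otherwise the gene with the lowest adjusted p of a role group without a call. Only after seeing the data were the batch test, the length test, the shares of related genes and the motifs added. Alternatives were DESeq2 1.42.0, RLE scaling, no filter, no batch term, the replicate number as a block, no rRNA genes, each batch alone, only the 2 tissues compared, and each sample left out. Python 3.11.15, pandas 2.3.3 and matplotlib 3.10.9 were used for shares and figures.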

Additional observations from a re-analysis of the deposited data

Results flagged for a closer look

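Cd247 in spleen replicate 2 was 164 CPM, whereas the other 3 spleen samples were between 92.5 and 100.6 CPM. The gap to the nearest sample was 0.887 of the range of the group, above Dixon's 95% critical value for 4 samples. It was 1 of 69 groups of 4 samples so tested (the 9 genes, the CD3 chain shares and the 10 named pathway genes), and chance flags about 1 in 20. Without this sample the adjusted p of Cd247 over the 4 tissues was 0.142 by edgeR, against 0.229 with it.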

How the results depend on the processing

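The count of members called over the 4 tissues and in pairs of tissues was 0 under the main settings, and 1 (Lat) with DESeq2 in both, and 1 (Lat) in pairs with only the 2 tissues compared. It stayed at 0 under all other alternatives and with each sample left out (0 to 0), and for LNs against spleen and thymus it was 0 under every alternative. Pathway genes called over the 4 tissues, 7 under the main settings, were 14 with DESeq2, 12 with no filter on low counts, 3 with no batch term, 3 in batch 1 alone, 1 in batch 2 alone, and 4 to 8 with each sample left out (4 without thymus replicate 2, spleen replicate 2 or spleen replicate 4). Those called for LNs against spleen and thymus, 3 under the main settings, were 5 with no filter, 1 in batch 1 alone, 0 in batch 2 alone by edgeR, and 2 to 4 with each sample left out. The cause of these differences was not tested, but each batch alone holds 8 or 7 samples. In the order of the 9 members by TPM, 5 of 9 kept their place in batch 1 alone, and 7 to 9 with each sample left out. The share of Cd3e in the CD3 chains was 65.0% to 68.6% under the alternatives. Mean levels were also taken as TMM-scaled CPM per kilobase, as TPM without rRNA genes, and in each batch alone. They then were 1024 to 1821 for Cd3e and 38.9 to 68.6 for Zap70, against 1304 and 48.8 TPM under the main settings. Over all genes, the count called over the 4 tissues was 459 under the main settings, 1002 with DESeq2, 1134 with no filter, 180 in batch 1 alone and 41 in batch 2 alone. The fold changes recomputed under every alternative (1 pair per member, and the called pairs of pathway genes) kept their sign. Other pairs did not between batch 1 alone and batch 2 alone, among them mLN against spleen for Cd247 (0.84 and -0.245) and Zap70 (-0.19 and 0.52), iLN against thymus for Lck (-0.30 and 0.12), and LNs against spleen and thymus for Zap70 (-0.32 and 0.26).
The labels do not say whether samples of the same number were paired. The paper compared frequencies of the most prevalent TCRβ sequences in its RNAseq samples by a paired t-test. Deviations of same-numbered samples correlated at 0.0015 to 0.250 (mean 0.122, 21 pairs). For other samples of the same batch the mean was 0.107 (21 pairs). Of the 15 samples, 13 correlated best with one of their own number, although both kinds of pair were equally many. A pairing is thus possible, and the main fit, with its tissue and batch terms, did not use it. When a replicate block took the place of the batch term, 0 members, 6 pathway genes over the 4 tissues and 2 for LNs were called, and Lat between thymus and spleen was -0.70 (edgeR adjusted p = 0.0277).
With 1152702 counts, thymus replicate 2 gave the fewest counts for the members, and Zap70 and Cd247, whose SEs reached 0.25 and 0.24 on the log2 scale, had the widest intervals of the 9.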
